A study of Mus musculus and Homo sapiens with 18 samples.

Results

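In mouse embryonic stem cells that carry an integrated dCas9 gene, 482 sites of the guide Nanog-sg3 were found in both libraries made with 20 ug of guide and had no peak when dCas9 was supplied by transient transfection. They are 482 of the 5862 peaks in the second of those libraries (8.22%). They were chosen by presence and absence in 3 deposited peak lists: a peak of the second library had to share at least 1 bp with a peak of the first library and none with a peak of the transient library. Of the 3646 second-library peaks that recurred in the first library, 3164 also overlapped a transient peak and serve as the set for comparison. Being replicated and being absent from the transient list are therefore properties of the choice and not findings.

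Catalytically inactive Cas9, called dCas9, keeps the RNA-guided binding of Cas9 to DNA but makes no cut. The protein first recognises a short protospacer adjacent motif in the DNA and then pairs the guide with the neighbouring strand, starting from the bases next to that motif, the seed. Pairing of the seed can hold the protein at sites that match the rest of the guide poorly, so binding is known to be far more widespread than cutting, and it is more frequent where chromatin is open. Nanog, for which the guide is named, is a homeobox gene whose product helps to keep stem cells pluripotent.

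The measurement was chromatin immunoprecipitation with an anti-HA antibody against the tag on dCas9, followed by sequencing (ChIP-seq). The stable libraries came from V6.5 + dCas9 cells, an embryonic stem cell line of mixed C57BL/6-129 strain, after transfection of 20 ug of the guide RNA Nanog-sg3 (2 libraries). With 0.02, 0.2 and 2 ug of the guide, 1 library each was made from the same line. The transient library came from V6.5 cells, with no dCas9 gene in the label, that received 20 ug of Nanog-sg3 together with 20 ug of dCas9, again with 1 library. All of these cells received a guide, and no list of a no-sgRNA IP in mouse cells was analysed here. Neither the promoter of the dCas9 gene nor whether the stable line is 1 clone is stated in the labels. The way dCas9 was supplied, the cell line and the preparation of the library cannot be told apart, since each goes with the others.

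Each deposited peak has a position on the mouse build mm9 and a score given by the authors, whose scale is not stated. The score is used here mainly to describe and rank peaks within 1 list. Where scores of several lists stand side by side, or 1 score limit is set for several lists, the scale may differ between them. The second library held 5862 peaks with scores of 50.07 to 2173.77, the first 5957 with 50.01 to 2376.58, and the transient library 16119 with 50.01 to 2147.38. Median peak widths were 946, 859 and 365 bp in the same order. The lists carry no read counts, so depth is unknown and a site that is absent from a list may have been bound below the authors' threshold or removed by a filter. All intervals below are exact Clopper-Pearson 95% intervals and cover counting error only. With 1 transient library and 1 library at each lower dose no test over samples was possible, and none is given. No genome of mm9 was used here, so the sites are identified by position, without genes or sequence.

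Most of the sites scored below 134.63, the median of all peaks in the second library, from which they came. Their median score in the second library was 113.68, with a lowest of 50.92 and a highest of 645.95, against a median of 171.07 (50.13 to 2173.77) for the peaks also found in the transient list. In the first library the partners of the sites had a median of 103.86 (50.08 to 492.45), against 151.53 (50.05 to 2376.58) for the comparison set. All 5862 peaks were ranked by score and cut into 4 score groups holding about the same number of peaks, at 89.08, 134.63 and 215.64. Score group 1, the lowest, held 147 of the sites, groups 2 and 3 held 163 and 112, and group 4 held 60. Read the other way, 26.0% of replicated peaks in group 1 lacked a transient peak (147 of 565, interval 22.4 to 29.8%), then 19.4% (163 of 840) in group 2, 10.8% (112 of 1037) in group 3 and 4.98% in group 4 (60 of 1204, 3.82 to 6.37%). Among all second-library peaks, replicated or not, the share without a transient peak was 21.3%. Of the 100 strongest peaks of the second library 1 belonged to the sites and 98 to the comparison set, and of the 500 strongest 13 belonged to the sites.

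**Figure D1:**
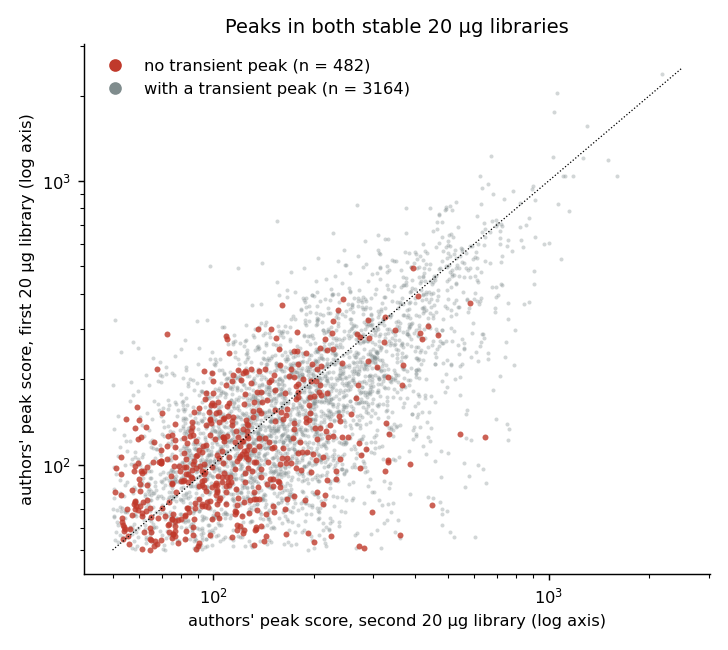
Each point is a peak found in both stable 20 ug libraries, with the authors' score in the second library on the x axis and in the first library on the y axis, both on log scales. The 482 sites without a transient peak (red) lie mostly at low and middle scores, up to 645.95 in the second library, while the 3164 peaks with one (grey) reach 2173.77.

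The sites were also narrower than the comparison set, with a median width of 792 bp (343 to 3561 bp) against 971 bp (333 to 6762 bp) in the second library, and 843.5 bp against 970 bp for their first-library partners. A narrow peak has fewer bases that can overlap, so width is tied to the choice of the sites. Each of the 482 sites overlapped exactly 1 peak of the first library. The centres of the paired peaks lay a median of 76 bp apart, against 85.5 bp in the comparison set. Scores in the 2 stable lists ran together over the sites with a Spearman rho of 0.48 (n = 482), and over the comparison set with 0.62 (n = 3164). These values describe peaks that share 2 libraries, and the range of scores is smaller among the sites.

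The 10 sites with the highest score in the second library show how far scores reached without a transient peak. The first was on chromosome 17 between 72223306 and 72223871. It scored 645.95 (rank 77 of 5862) in the second library and 124.86 in the first, and had no peak at 2 ug. The next, on chromosome 4 between 46701983 and 46702724, scored 581.41 in the second library and 372.37 in the first and also had none at 2 ug. Its nearest transient peak was 38.7 kb away. The site on chromosome 1 between 130756187 and 130757421 scored 543.61 in the second library and 128.43 in the first, and had a 2 ug peak with a score of 273.89. The first site and the one on chromosome 1 ranked 77 and 152 in the second list but 2481 and 2381 of 5957 in the first, whereas the one on chromosome 4 was near the top of both, with ranks 121 and 314.

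A pair of further sites on chromosome 17 belonged to the 10. The one between 4947926 and 4949201 scored 468.63 in the second library, 286.19 in the first and 198.49 at 2 ug. The one between 35645960 and 35647201 scored 449.97 in the second library, 72.10 in the first and 292.85 at 2 ug. This last site ranked 222 of 2698 in the 2 ug list, which had no part in the choice, and 291 in the second 20 ug list, but 4714 in the first. On chromosome 6, the site between 148779570 and 148780636 scored 436.22 in the second library, 307.88 in the first and 326.63 at 2 ug, and the site between 120172450 and 120173432 scored 413.86 and 292.10 in the 20 ug libraries with no 2 ug peak.

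Of the remaining 3, the site on chromosome 8 between 125634468 and 125635090 scored 419.26 in the second library and 276.99 in the first. The site on chromosome 1 between 138594936 and 138596132 scored 407.99 and 394.17, and a transient peak with a score of 336.58 lay 3.0 kb from it. The site on chromosome 2 between 143744320 and 143745293 scored 393.22 in the second library and 492.45 in the first, where it was the highest of all 482 partners, and 221.66 at 2 ug. Of the 10 sites, all in score group 4, 5 had a 2 ug peak. Among all second-library peaks of that group 63.1% had one (925 of 1466). On chromosome 17 were 3 of the 10, and 4.81% of all second-library peaks. Their nearest transient peaks were 3.0 to 140.1 kb away.

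**Figure D2:**
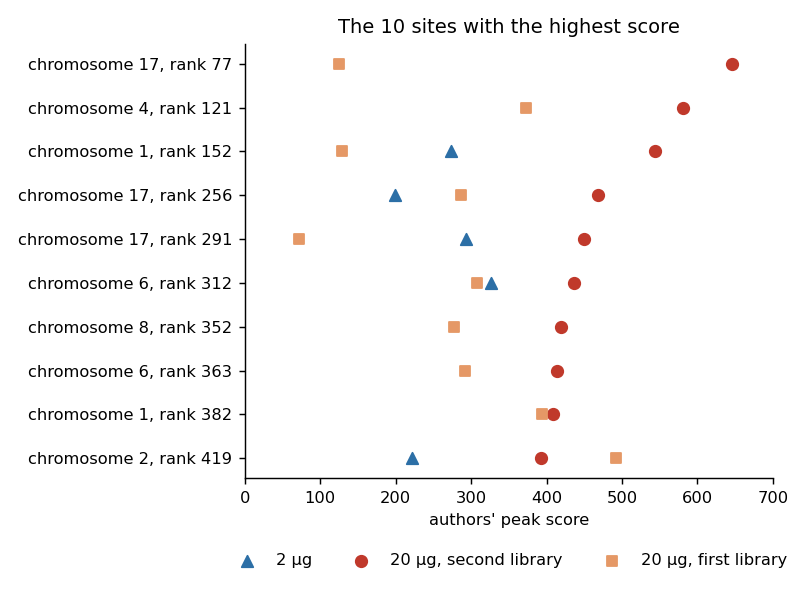
The authors' peak score (x axis) of the 10 sites with the highest score in the second library, 1 per row, labelled by chromosome and rank in that library. Triangles give the 2 ug list, circles the second and squares the first 20 ug library; a missing triangle means no 2 ug peak, as for 5 of the 10. The scale of the score is not stated, and it may change from list to list.

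Sites on chromosome 17 had a high median score in the second list and not in the first. The 19 sites there had a median score of 198.92 in the second library, against 111.61 for the 463 on other chromosomes, while in the first library the medians were 97.69 and 104.35. In the second list the comparison set had a median of 219.50 on chromosome 17, against 171.07 over all chromosomes. The median ratio of second to first score on chromosome 17 was 1.64 for the sites and 1.96 for the comparison set. Over all chromosomes it was 1.06 and 1.11. The difference between the 2 lists on chromosome 17 was thus not particular to the sites. The 40 sites on chromosomes 17 to 19 had a median of 154.34 in the second library, against 111.18 for the 442 on the rest, while in the first library the medians were 96.08 and 104.75. Taken singly, the 8 sites on chromosome 18 had a median of 125.29 in the second library and the 13 on chromosome 19 had 107.64. The comparison set had 216.52 and 207.63 on chromosomes 18 and 19. These chromosomes were set apart after their values were seen.

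A distance above 0 to the nearest transient peak was fixed by the choice of the sites, and its size is given as a description. The median distance from a site to the nearest transient peak was 28.8 kb (interquartile range 8.6 to 81.1 kb). Of the 482 sites, 20 lay within 1 kb of a transient peak (4.15%, interval 2.55 to 6.34%), 133 within 10 kb (27.6%), 376 within 100 kb (78.0%) and 478 within 1 Mb. Peaks of the second library alone, without a partner in the first or in the transient list, and so chosen in the same way, had a median of 26.8 kb (n = 767). These distances depend on the definition of the sites: the median was 4859 bases where peak centres had to lie within 200 bp, and 0 where 50% of both peaks had to be in common. Of the 20 sites within 1 kb, 11 had as their neighbour a transient peak that overlapped a peak of a stable 20 ug library. The site's own first-library partner was not left out of that count. In 3 sites the first-library partner reached into a transient peak although the second-library peak did not. Without these 3, 479 sites are left.

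No site lay directly beside a transient peak. The nearest sites lay 265 bases from a transient peak, on chromosome 6 between 144429818 and 144430190 (score 73.04) and on chromosome 4 between 125974678 and 125975373 (score 158.41). The next, on chromosome 11 between 22379561 and 22380625 (score 156.45), lay 322 bases away. Just outside the choice, the replicated peaks with the least overlap shared 120 bases with a transient peak on chromosome 3 between 34817022 and 34817600 (score 152.59), 134 bases on chromosome 7 between 150482264 and 150483734 (67.21) and 143 bases on chromosome 19 between 33960267 and 33960645 (65.10). No replicated peak lay between these distances and overlaps.

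At the other end, 4 sites were more than 1 Mb from any transient peak, of which the 3 farthest are given. The farthest of them, on chromosome 16 between 70447273 and 70447704, was 1437.6 kb away and scored 75.33 in the second library and 64.48 in the first. The site on chromosome 14 between 11285374 and 11286438 was 1101.3 kb away, scored 110.33 and 148.86, and had a 2 ug peak with a score of 59.45. The site on chromosome X between 81751842 and 81752252 was 1066.5 kb away and scored 120.33 and 116.43, with no 2 ug peak.

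The median distance between neighbouring sites was 2722.0 kb. Of 462 neighbouring pairs, 126 lay within 1 Mb, 23 within 100 kb and 3 within 10 kb. The closest pair, on chromosome 6, was separated by 1239 bases: the peak between 87495474 and 87496132 scored 76.78 in the second library and 63.44 in the first, and the peak between 87497372 and 87498324 scored 216.18 and 130.95. A pair on chromosome 17 was separated by 7098 bases, with scores of 124.25 between 7713984 and 7714731 and 238.09 between 7721830 and 7722869. The third pair, on chromosome 4, was separated by 9427 bases. It held the widest of all sites, 3561 bp between 132610986 and 132614546, with scores of 273.93 and 282.08, beside a peak between 132600094 and 132601558 with scores of 90.33 and 158.24.

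**Figure D3:**
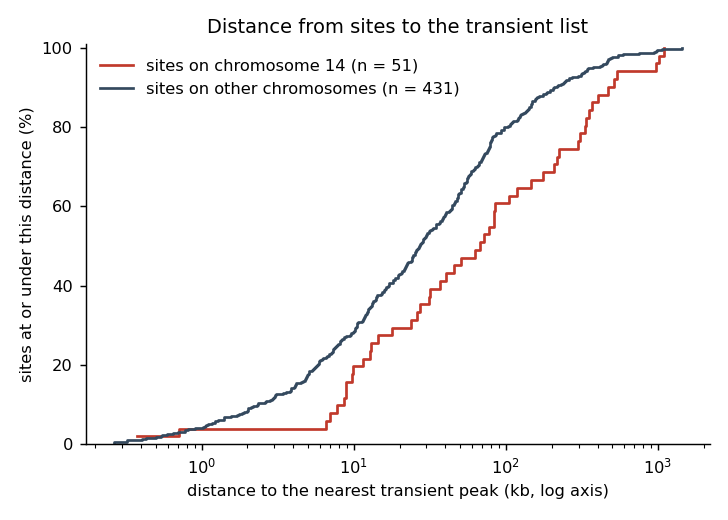
Cumulative share of sites (y axis, %) by distance to the nearest transient peak (x axis, kb, log scale), for the 51 sites on chromosome 14 (red) and the 431 on other chromosomes (dark). The red curve lies further right over most of its course, with a median of 67.8 kb against 27.0 kb. The transient list was sparse on chromosome 14, with 1.18 peaks per second-library peak, against 2.17 to 3.69 on 19 other chromosomes.

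The lower guide doses had no part in the choice of the sites. None of the 482 sites had a peak at 0.02 or at 0.2 ug, a count of 0 with an interval of 0 to 0.762% at each dose. The background over all second-library peaks was 0.324% at 0.02 ug (19 of 5862) and 1.74% at 0.2 ug (102 of 5862), and the comparison set had 0.316% (10 of 3164) and 2.78% (88 of 3164, 2.24 to 3.42%). At 2 ug 52 of the 482 sites had a peak (10.8%, interval 8.16 to 13.9%), against 1370 of the 3164 in the comparison set (43.3%, 41.6 to 45.0%). The background over all second-library peaks was 30.5% (1789 of 5862). The share at 2 ug was thus below both the comparison set and the background, by more than the counting error, and the same held at 0.2 ug. The comparison set was chosen for a peak in 1 more list of the same guide, and only 21.3% of all second-library peaks lacked one. How far the gap follows from that choice was not tested.

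The gap at 2 ug was present within each score group. In group 1 a 2 ug peak was found at 3.40% of the sites (5 of 147, 1.11 to 7.76%), against 13.6% of the comparison set (57 of 418, 10.5 to 17.3%). Group 2 gave 9.82% of sites (16 of 163) against 23.9% (162 of 677), and group 3 gave 13.4% (15 of 112) against 37.2% (344 of 925). In group 4 the shares were 26.7% (16 of 60, 16.1 to 39.7%) and 70.5% (807 of 1144, 67.8 to 73.2%). In each score group the intervals of the 2 sets did not overlap. Scores inside a group can still differ between the sets, and group 4 spans the widest range.

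A set of peaks chosen the opposite way gives another set of similar score. The 1449 second-library peaks that were in the transient list but not in the first stable library had a median score of 111.31, beside 113.68 for the sites, and 22.6% of them had a 2 ug peak (328 of 1449, 20.5 to 24.9%). The sites, with 10.8%, were below them as well, although they were the ones found in both 20 ug libraries. These peaks were wider, with a median of 1015 bp. Where a 2 ug peak was required within 200 bp of the centre, whatever the width, the shares were 10.8% for the sites, 20.5% for these peaks and 39.9% for the comparison set. The 767 peaks of the second library alone, which also lacked a transient peak, had a median score of 87.37 and 5.08% at 2 ug. In score groups 1 to 4 they had 2.28, 4.63, 11.2 and 16.0%, below the sites in each group, with overlapping intervals. A low 2 ug share within a score group was thus not particular to the sites. Seen from the first library, however, the order was another: of its peaks that were in the transient list but not in the second library, 4.75% had a 2 ug peak (57 of 1201), below the 10.6% (52 of 490) of its own peaks that were in both 20 ug libraries and not in the transient list. These sets were not alike in score, with first-library medians of 103.06 for the peaks without and 86.15 for those with a transient peak. The 2 ug list has the same sixth column as the second library, which the first library lacks, and its part in this order was not tested. The 2 ug share also moved with the definition of the sites. Where 50% of both peaks had to be in common, 2182 sites were counted, and the shares were 35.6% against 44.5%. The median distance of these sites to a transient peak was 0, since peaks that overlap one to a lesser extent are then counted. Where peak centres had to lie within 200 bp, 707 sites gave 30.7% against 39.0%, and where both stable scores had to be at least 100, 199 sites gave 18.1% against 52.6%. Without the requirement of a first-library partner the share was 7.29%, and for first-library peaks without that of a second-library partner it was 4.83%.

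**Figure D4:**
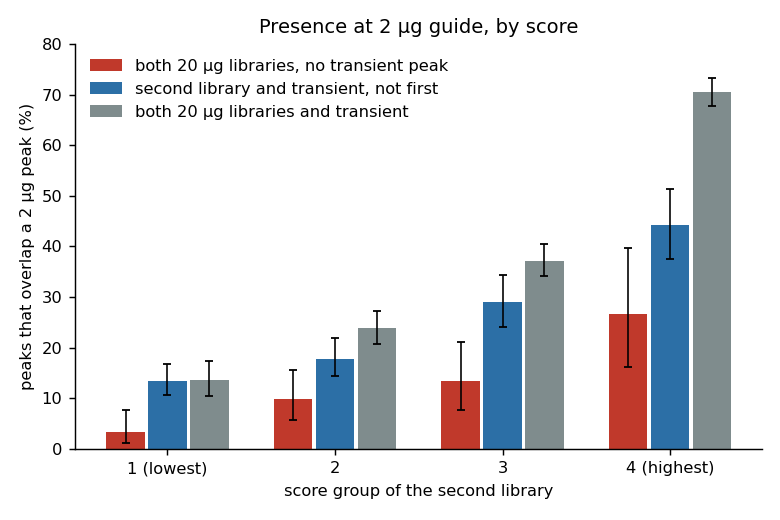
Share of peaks that overlap a 2 ug peak (y axis, %) in the 4 score groups of the second 20 ug library (x axis, low to high), with exact 95% intervals. Of the sets drawn, the sites (red) are the lowest in every group, from 3.40% to 26.7%. The peaks of the second and transient lists but not the first (blue) run from 13.4% to 44.3%, and those of all 3 lists (grey) from 13.6% to 70.5%. Peaks of the second library alone, which are lower still, are not drawn.

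The 52 sites with a 2 ug peak had a median score of 151.66 in the second 20 ug library, against 109.48 for the 430 without one. Their 2 ug scores ran from 51.22 to 471.15 with a median of 126.34. The highest belonged to a site on chromosome 1 between 75062030 and 75063822. With a score of 471.15 it ranked 48 of 2698 in the 2 ug list, while it ranked 2474 of 5862 in the second and 1355 of 5957 in the first 20 ug list. The next highest at 2 ug were both on chromosome 14. The site between 26630244 and 26631187 ranked 114 at 2 ug, 2536 in the second and 4073 in the first 20 ug list. The site between 54414841 and 54415611 ranked 126 at 2 ug, 1498 in the second and 3072 in the first. These 3 positions were named after their values were seen.

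Chromosome 14 carried more of the sites than any other chromosome. It held 51 of the 482 sites (10.6%), but 106 of the 3164 peaks in the comparison set (3.35%). Of its 157 replicated peaks 32.5% had no transient peak (interval 25.2 to 40.4%), against 12.4% (11.3 to 13.5%) over the other chromosomes together and 6.11 to 18.7% over 19 of them taken singly. The Y chromosome, with 1 replicated peak, was left out of that range. At the low end, chromosome 11 had 16 sites of 262 replicated peaks (6.11%, 3.53 to 9.73%) and chromosome 18 had 8 of 125 (6.40%).

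The transient list itself was sparse on chromosome 14. It held 303 of its 16119 peaks there (1.88%, 1.68 to 2.10%), against 4.37% in the second and 4.38% in the first stable 20 ug list, 4.89% at 2 ug and 4.24% for Phc1-sg1, another guide in the same stable line. There were 1.18 transient peaks for each second-library peak on chromosome 14, and 2.17 to 3.69 on the 19 other chromosomes, with the highest value on chromosome 11. The lists give peaks and not reads, and whether reads, mapping, peak calls or the authors' filter differed on chromosome 14 was not tested. The 32.5% and the 51 sites carry that limit. The share of replicated peaks without a transient peak is also given for score groups 3 and 4, which lie above the median score. Being without a transient peak is the rule that chose the sites, and whether the shortage depended on score was not tested. In score group 3, 37.5% of the replicated peaks of chromosome 14 had no transient peak (18 of 48, 24.0 to 52.6%), against 9.50% elsewhere (94 of 989, 7.75 to 11.5%). In group 4 the counts were 3 of 30 (10.0%, 2.11 to 26.5%) and 57 of 1174 (4.86%, 3.70 to 6.25%), and the intervals overlapped.

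The sites on chromosome 14 were spread along it, with the first starting at 8649888 and the last ending at 122346585. The strongest, between 49906884 and 49907662, scored 306.61 in the second library and 220.42 in the first, and its nearest transient peak was 352.2 kb away. The next were a pair of neighbouring sites, the last ones on the chromosome. The one between 122330667 and 122331598 scored 232.18 in the second library, 94.58 in the first and 244.53 at 2 ug, and the one between 122345854 and 122346585 scored 226.97, 321.73 and 130.39. Both were in the 2 ug list and in both 20 ug lists. These positions were named after their values were seen. The median distance to a transient peak was 67.8 kb on chromosome 14 and 27.0 kb elsewhere. These distances carry the same limit, as the transient list was sparse on chromosome 14.

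The 2 ug share of the sites on chromosome 14 was below that of its comparison set, by a smaller gap than elsewhere. A 2 ug peak was present at 11 of the 51 (21.6%, interval 11.3 to 35.3%), against 41 of the 431 on other chromosomes (9.51%, 6.91 to 12.7%), and these intervals overlap. In score group 3 the sites of chromosome 14 had 38.9% (7 of 18, 17.3 to 64.3%) and its comparison set 36.7% (11 of 30). Elsewhere the sites of that group had 8.51% (8 of 94) and the comparison set 37.2% (333 of 895). In the other groups of chromosome 14 the sites were below the comparison set. Group 1 gave 0 of 14 against 7 of 19, and group 2 gave 2 of 16 against 7 of 30. Group 4 gave 2 of 3 against 23 of 27. Over all scores the comparison set had 45.3% on chromosome 14 (48 of 106, 35.6 to 55.2%) and 43.2% elsewhere (1322 of 3058). On chromosome 14 the intervals of the sites and of the comparison set did not overlap. The gap at 2 ug described above held without chromosome 14, at 9.51% against 43.2%. Chromosome 14 was singled out after its values were seen.

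**Figure D5:**
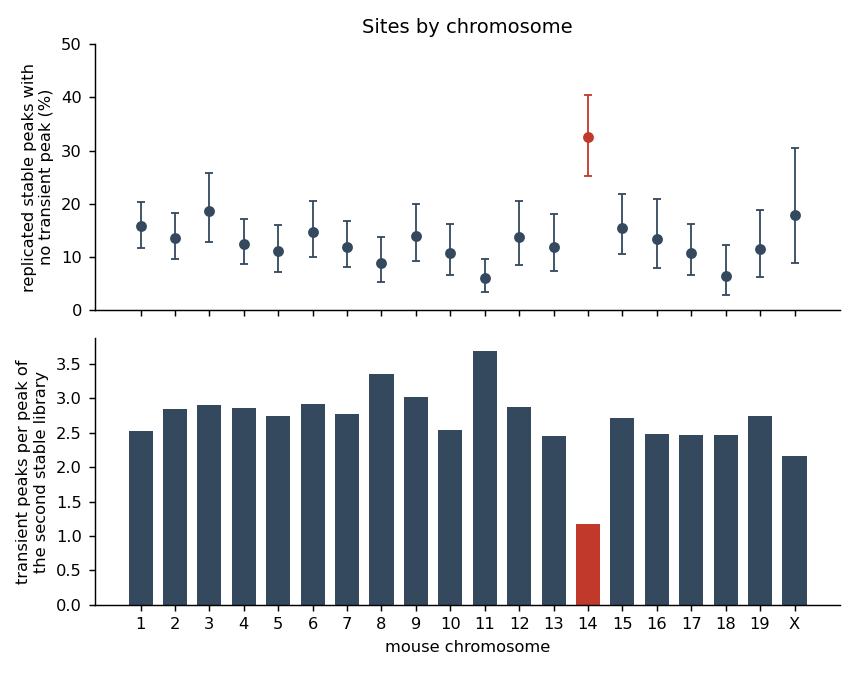
Top, share of replicated stable peaks without a transient peak (y axis, %) on each mouse chromosome, with exact 95% intervals. Bottom, number of transient peaks per peak of the second stable library. Chromosome 14 (red) is highest in the upper panel at 32.5% and lowest in the lower one at 1.18; chromosome Y, with 1 replicated peak, is not drawn.

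No site overlapped a peak of another guide or of the input of the transient cells. Peaks of the Phc1-sg1, Phc1-sg2 and Nanog-sg2 lists overlapped 0 of the 482 sites (interval 0 to 0.762%) and 16 of all 5862 second-library peaks (0.273%). At so low a background the sites cannot be set apart from the rest on this count. The 3 peaks in the input of the transient cells overlapped none of the sites and 0 of all 5862 second-library peaks. That count does not set the sites apart either. The sites were somewhat farther from Phc1-sg1 peaks than the comparison set was, with a median distance of 206.8 kb against 150.3 kb. A Phc1-sg1 peak lay within 100 kb of 32.0% of the sites (154 of 482, 27.8 to 36.3%) and of 38.7% of the comparison set (1225 of 3164, 37.0 to 40.4%). Without chromosome 14 the shares were 32.0% and 38.9%. Over all second-library peaks the share was 39.6% (2320 of 5862). The 767 peaks of the second library alone, which also lacked a transient peak, had 40.0% (307 of 767). Within a window of 1 Mb around the centre, the median number of other second-library peaks was 4 for the sites and 4 for the comparison set. In the same window the median number of transient peaks was 9 for the sites and 12 for the comparison set, and that of 2 ug peaks was 1 and 2. Both counts include any peak that overlaps the central one, which for the transient list the choice fixes in the comparison set.

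The site at Nanog itself was not among the 482. The first library had its peak on chromosome 6 between 122655719 and 122658343 with a score of 1472.86, found as the peak that overlaps the strongest Nanog-sg2 peak at 20 ug. The second library had no peak there, its nearest being 111765 bases away, and the nearest transient peak was 2434 bases away. The second and transient lists are named as filtered by the authors and the first is not. What the filter removed is not stated, and its part in the absence of this peak was not tested. Since the choice required a second-library peak, this position could not enter it.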

How the data were processed

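Per the series' design text and the labels, HA-tagged dCas9 was immunoprecipitated from mouse cells after transfection of the guide. The submitters' processing notes name Bowtie, an aligner, and the build mm9. Peak names in the deposited lists begin with MACS, a peak caller; its settings and the filters are not stated in the labels. The deposited peak score is the authors' and its scale is not stated. The deposited lists of 0.02, 0.2, 2 and the second 20 ug library hold the number 10 in a sixth column of unstated meaning, the transient lists hold 5, the 10 and 40 ug Nanog-sg2 lists hold 11, and the first 20 ug, Phc1 and 20 ug Nanog-sg2 lists lack it.

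Of the 16 lists 12 were used; the 4 human ones were not. Overlap meant at least 1 bp in common, distances are the bases between peaks, and starts are printed counting from 1. The first and second 20 ug libraries are numbered by accession, and whether they came from separate cultures is not stated. Python 3.11.15, pandas 2.3.3 and SciPy 1.17.1 were used. The overlap code was tested on simulated data, and bedtools 2.31.1 gave the same 482 sites.

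The sites, sets and the rule for named positions were chosen with earlier results of these data known. Named were the 10 highest-scoring sites, the 3 farthest from and the 3 nearest to a transient peak, the 3 replicated peaks with the least transient overlap, sites at 0.02 or 0.2 ug or with another guide (there were none), and neighbours within 10 kb. Read depth is unknown.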

Additional observations from a re-analysis of the deposited data

How the results depend on the processing

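Every definition tried for the sites changed their median distance of 28809.5 bases to the nearest transient peak. Some changes were small, as to 29505.0 or 29943.5 bases, and others large, as to 0.0 or 63539.5 bases. Requiring 50% of both peaks in common gave 2182 sites (482 as reported), a median distance of 0.0 bases with 80.2% within 1 kb (4.15% as reported), a score of 151.08 (113.68), a width of 969.5 bp (792 bp), 35.6% with a 2 ug peak (10.8%) and 2.06% with a 0.2 ug peak (0). Centres within 200 bp gave 707 sites, 4859.0 bases, 43.3% within 1 kb, a score of 137.03, a width of 1019.0 bp, 30.7% at 2 ug and 1.41% at 0.2 ug. Scores of at least 100 in all lists gave 560 sites, 63539.5 bases, 2.50% within 1 kb, 173.73, 911.5 bp and 18.2% at 2 ug. Scores of at least 100 in the stable lists alone gave 199 sites, 24231.0 bases, 161.03, 880.0 bp and 18.1%. First-library positions gave 27800.5 bases, 103.06 and 841.5 bp. The distance was 31460.0 bases without sites within 1 kb of a transient peak, of which 0 are then left, and 29943.5 bases with peaks within 500 bp merged. Among settings chosen after seeing the data, it was 27036.0 bases without chromosome 14 and 29505.0 bases where the first-library partner also had no transient peak. Leaving out each 20 ug library in turn gave 1249 to 1593 sites, 27363.0 to 35779.0 bases, scores of 83.14 to 97.33, widths of 720.0 to 792.0 bp and 2 ug shares of 4.83 to 7.29%. The first 2 definitions also count peaks that overlap a transient peak, by their construction. A score limit in the transient list also drops transient peaks, so that more sites lack one. For the rest the cause was not tested. Under the definitions for which both sets were computed over all their peaks, the 2 ug share of the sites was below that of the comparison set, with the smallest gap at 30.7% against 39.0%. In score group 3 of chromosome 14, with 18 sites, it was not, at 38.9% against 36.7%, while in the other score groups of that chromosome it was.

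No paired analysis was possible because the results come from no test and the other groups have 1 library each. The libraries limit what can be said: with 1 transient library, the spread between transient libraries is unknown, and a peak list without read counts does not show whether an absent site was shallowly covered or unbound. The highest score group held 60 sites, and the 2 ug shares on chromosome 14 rest on 51.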
